A study of Mus musculus with 6 samples.

Results

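The genes described here are 10 transcripts of macrophages and of the complement protein C1q: C1qa, C1qb, C1qc, Mrc1, Cd68, Csf1r, Ctss, Cd14, Fcgr3 and Lyz2. They were chosen by symbol and not by a cut on their signal, but with earlier results of these data known. Counts of them set beside the share of all genes are therefore a description. On the array 14 probe sets are annotated to exactly 1 of these symbols. All 10 genes were measured, of 18193 genes in all, and the probe set of highest average signal on the 6 arrays stands for a gene. Signals are log2 values as deposited, so a difference of 1 is a doubling.

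The arrays profiled mouse bladder urothelium, taken from frozen stained sections by laser capture microdissection, in which chosen cells are cut out under a microscope. There were 3 groups with 2 arrays each. The invasive carcinoma and carcinoma in situ arrays came from mice of genotype H-ras+/-, p53-/-, described as double transgene, and the normal urothelium arrays from Wild-type mice. All mice were of strain FVB/N and 8 months old, and carcinoma in situ is a flat lesion of atypical cells that has not crossed the basement membrane. Genotype and lesion therefore changed together against normal urothelium, and only invasive carcinoma against carcinoma in situ compared lesions of 1 genotype. The promoter that drives H-ras and the cells in which p53 is missing are not given in the sources used here. Which animals the captured regions came from is not labelled. Part of the spread behind the p-values may thus be technical, and 2 arrays per group limit the precision.

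Macrophages are phagocytes that live in most tissues and are also replenished from blood monocytes, and in the bladder they sit mainly in the connective tissue under the urothelium. They depend on signalling through the receptor CSF1R, take up debris through scavenger and Fc receptors, and break proteins down in lysosomes. C1q is the recognition molecule that starts the classical complement pathway when it binds immune complexes or dying cells. It is built from 3 chains, and unlike most complement proteins it is made largely by macrophages and dendritic cells rather than by the liver.

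The genes for the C1q chains lie side by side on mouse chromosome 4, in the order C1qb, C1qc, C1qa in the RefSeq table of assembly GRCm38.p6. The stretches before the start of C1qb and C1qc are shown because these genes moved together over the arrays. That of Ctss is shown because this gene passed the test in all 3 comparisons. Each is the 250 bases before the annotated start, from RefSeq on GRCm38.p6, printed on the strand of the gene (C1qb at chr4:136886201-136886450, minus strand, C1qc at chr4:136892915-136893164, minus strand, Ctss at chr3:95526536-95526785, plus strand). Capitals mark GAGGAA or its reverse complement TTCCTC, a match to the purine-rich core bound by ETS factors such as PU.1, the factor of myeloid cells encoded by Spi1.
C1qb: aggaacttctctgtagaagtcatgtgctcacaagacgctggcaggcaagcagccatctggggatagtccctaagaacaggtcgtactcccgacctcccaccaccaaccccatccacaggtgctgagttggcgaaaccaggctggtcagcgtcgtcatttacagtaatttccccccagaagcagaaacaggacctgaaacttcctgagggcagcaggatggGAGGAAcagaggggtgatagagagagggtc
C1qc: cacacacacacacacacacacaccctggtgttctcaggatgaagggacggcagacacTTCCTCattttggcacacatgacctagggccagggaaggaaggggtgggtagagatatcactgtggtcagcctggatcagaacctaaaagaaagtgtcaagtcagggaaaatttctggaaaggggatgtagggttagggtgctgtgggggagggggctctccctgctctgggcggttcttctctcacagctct
Ctss: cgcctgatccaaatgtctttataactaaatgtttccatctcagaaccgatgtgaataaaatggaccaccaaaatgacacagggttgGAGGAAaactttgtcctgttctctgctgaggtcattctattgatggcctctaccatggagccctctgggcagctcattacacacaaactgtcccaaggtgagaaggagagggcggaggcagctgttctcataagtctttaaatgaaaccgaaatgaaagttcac
The match begins 30 bases before the start of C1qb, 193 before that of C1qc and 164 before that of Ctss. In C1qc it stands on the opposite strand. In 23.3% of the 32851 promoter windows that RefSeq gives, the 250 bases hold these letters on either strand. Of the 10 genes 7 were searched, and 6 of these hold them (Mrc1, Cd68 and Fcgr3 besides the 3 shown) and Lyz2 does not. C1qa had no entry, and Csf1r and Cd14 were left out of the search. The count therefore says nothing about these genes and is not a share of all 10. A match to a motif of this length is a description of the sequence only.

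All arrays were on a common scale, with medians from 6.07 to 6.14. The arrays of a group were unequally alike, the SD of the difference between them over all genes being 0.42 for invasive carcinoma, 0.22 for carcinoma in situ and 0.69 for normal urothelium. Xist, made from the inactive X chromosome, and the Y-linked Kdm5d gave signal together on 2 arrays. They read 10.28 and 6.58 in invasive array 1 and 13.37 and 7.62 in normal array 2, without detection calls. Normal array 2 also stood apart in blood cell genes. Ms4a1, which encodes the B cell protein CD20, read 9.22 there and 4.96 in normal array 1, while the neutrophil gene S100a8 read 4.66 there and 8.76 in normal array 1. The counts of called genes are given with and without invasive array 1 and normal array 2.

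The first comparison, invasive carcinoma against normal urothelium, set the lesion named for progression against the control. All 10 genes were higher in invasive carcinoma, by 2.01 to 4.79 log2 units (4.03-fold to 27.6-fold). C1qa, C1qb and Mrc1 had the largest differences, Ctss and C1qc followed, and Cd68 had the smallest. All 10 passed limma's moderated test at an adjusted p under 0.05, with adjusted p from 0.00102 to 0.0192, where 12.6% of all 18193 genes were called higher and 7.46% lower. Both invasive arrays lay above both normal arrays for each of them, as for 29.7% of all genes. Their median difference was 3.44, against 0.0002 over all genes. In a bulk sample fewer cells of a type and less RNA per cell cannot be told apart, so these values do not say whether more macrophages were captured.

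**Figure D1:**
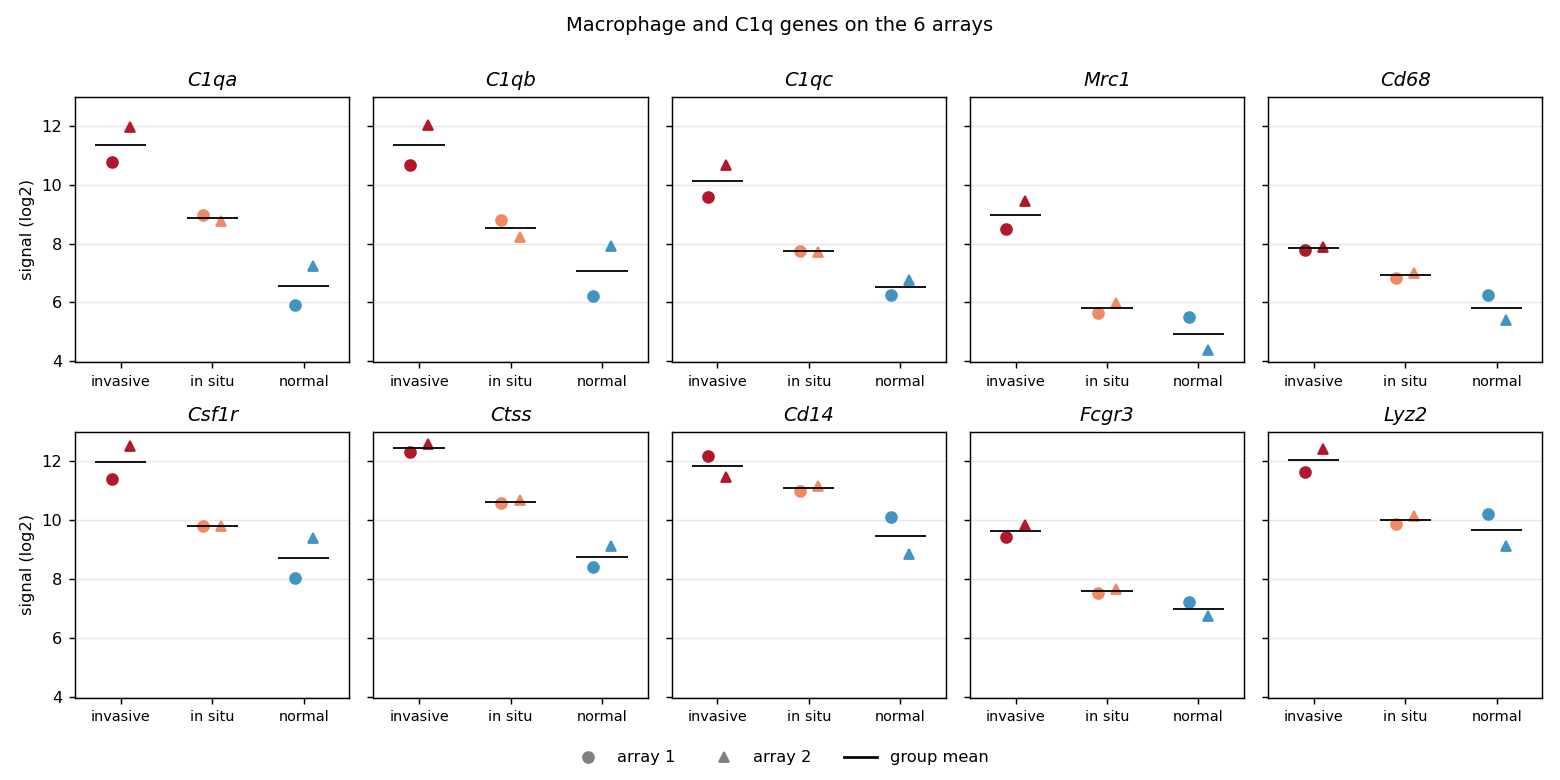
Signal (log2, vertical axis) of each of the 10 genes on the 6 arrays, in invasive carcinoma, carcinoma in situ and normal urothelium from left to right; circles are array 1, triangles array 2 and lines the group mean. Both invasive arrays lie above both arrays of each other group for every gene, and Lyz2 is the gene whose carcinoma in situ and normal arrays overlap.

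C1qa, the gene of the A chain of C1q, read 10.77 and 11.95 in the invasive arrays, 8.98 and 8.77 in the carcinoma in situ arrays, and 5.90 and 7.25 in the normal arrays. The groups did not overlap, and invasive carcinoma was 4.79 ± 0.55 above normal urothelium (log2 difference ± SE, 27.6-fold, adjusted p = 0.00399 by limma). C1qb, the B chain, read 10.66 and 12.03 in the invasive arrays, 8.81 and 8.22 in the carcinoma in situ arrays, and 6.20 and 7.93 in the normal arrays. Its 2 normal arrays differed more than those of any of the other 9 genes. The invasive arrays stood 4.28 ± 0.69 above the normal arrays (19.4-fold, adjusted p = 0.0112 by limma). C1qc, the C chain, read 9.58 and 10.67 in the invasive arrays, 7.76 and 7.71 in the carcinoma in situ arrays, and 6.26 and 6.77 in the normal arrays. Its groups were separate too, with a difference of 3.61 ± 0.39 between invasive and normal arrays (12.2-fold, adjusted p = 0.00303 by limma). The 3 chains thus shared 1 order of groups, with carcinoma in situ in between.

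Csf1r encodes the receptor for CSF1 and IL-34, on which macrophages depend for survival. It read 11.41 and 12.53 in the invasive arrays, 9.80 and 9.81 in the carcinoma in situ arrays, and 8.02 and 9.40 in the normal arrays. Normal array 2 came within 0.41 of the carcinoma in situ mean, and the invasive arrays stood clear of both other groups. The rise in invasive carcinoma over normal urothelium was 3.26 ± 0.55 (9.59-fold, adjusted p = 0.0124 by limma).

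Mrc1 encodes the mannose receptor CD206, a scavenger receptor of tissue macrophages. Its signal was 8.49 and 9.45 in the invasive arrays, 5.64 and 5.98 in the carcinoma in situ arrays, and 5.52 and 4.38 in the normal arrays. The carcinoma in situ arrays lay just above the normal ones and far below the invasive ones. Invasive carcinoma exceeded normal urothelium by 4.02 ± 0.48 (16.3-fold, adjusted p = 0.00424 by limma).

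Fcgr3, the gene of an activating receptor for IgG, read 9.43 and 9.82 in the invasive arrays, 7.53 and 7.65 in the carcinoma in situ arrays, and 7.22 and 6.73 in the normal arrays. It had the same layout as Mrc1, with carcinoma in situ close to normal. The difference between invasive and normal arrays was 2.65 ± 0.24 (6.28-fold, adjusted p = 0.00196 by limma). Cd14, the gene of a co-receptor that hands bacterial lipopolysaccharide to TLR4, behaved otherwise. It read 12.17 and 11.47 in the invasive arrays, 10.99 and 11.16 in the carcinoma in situ arrays, and 10.10 and 8.84 in the normal arrays. Here carcinoma in situ was close to invasive carcinoma, and invasive carcinoma stood 2.35 ± 0.45 above normal urothelium (5.11-fold, adjusted p = 0.0192 by limma).

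Ctss encodes cathepsin S, a lysosomal protease that trims the invariant chain of MHC class II. It read 12.32 and 12.58 in the invasive arrays, 10.57 and 10.69 in the carcinoma in situ arrays, and 8.40 and 9.11 in the normal arrays. The steps between neighbouring groups were of similar size. Invasive carcinoma exceeded normal urothelium by 3.70 ± 0.27 (13.0-fold, adjusted p = 0.00102 by limma). Cd68, a glycoprotein gene of lysosomes and endosomes, read 7.79 and 7.88 in the invasive arrays, 6.82 and 7.01 in the carcinoma in situ arrays, and 6.25 and 5.40 in the normal arrays. It had the smallest rise of the 10, at 2.01 ± 0.30 (4.03-fold, adjusted p = 0.00862 by limma). Lyz2, the lysozyme gene of myeloid cells, read 11.64 and 12.43 in the invasive arrays, 9.86 and 10.13 in the carcinoma in situ arrays, and 10.21 and 9.13 in the normal arrays. Carcinoma in situ lay between the normal arrays, and invasive carcinoma was 2.36 ± 0.43 above normal urothelium (5.13-fold, adjusted p = 0.0163 by limma). Lyz2 has a close copy, Lyz1, with probe sets of its own, so a shared signal between them cannot be told apart here. Lyz1 differed by 1.69 in the same comparison (adjusted p = 0.0127 by limma).

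The count of called genes depended on single arrays. It was 5 without invasive array 2 (C1qa, C1qc, Mrc1, Ctss and Fcgr3 remained), 9 without invasive array 1, where Cd14 was lost, and 8 without either carcinoma in situ array, where Cd14 and Lyz2 were lost. It was 10 without either normal array. It was also 10 when invasive array 1 and normal array 2, the arrays with Xist and Kdm5d together, were both left out, a setting added once the data had been seen. In that setting the spread comes from the carcinoma in situ arrays alone, the pair that differed least, and 24.4% of all genes were called higher.

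The second comparison, carcinoma in situ against normal urothelium, addressed the lesion named for tumour genesis. Ctss rose by 1.88 ± 0.27 (3.67-fold, adjusted p = 0.0169 by limma) and the other 9 did not pass. That is 1 of 10 genes, where 5.74% of all genes were called higher and 3.04% lower. All 10 differences were above 0, from 0.32 for Lyz2 to 2.30 for C1qa, with a median of 1.16 against 0.007 over all genes. In 9 of the 10 both carcinoma in situ arrays lay above both normal arrays, where 29.3% of all genes did so, and Lyz2 was the exception.

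The intervals show how little 2 arrays fix the size of these differences. C1qa was 2.30 higher (95% interval 0.92 to 3.67, adjusted p = 0.0639 by limma) and Cd14 1.61 higher (0.48 to 2.73, adjusted p = 0.0953). For C1qc the difference was 1.22 (0.26 to 2.18) and for Cd68 1.09 (0.35 to 1.83). For C1qb (-0.27 to 3.17), Mrc1 (-0.32 to 2.04), Csf1r (-0.26 to 2.45) and Lyz2 (-0.75 to 1.39) the interval included 0. The interval of Fcgr3 ran from 0.01 to 1.21. The intervals are those of the model before any adjustment for the number of genes.

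The call on Ctss was lost without either carcinoma in situ array, leaving 0 of 10 genes by limma (adjusted p of Ctss 0.173 without array 1 and 0.181 without array 2, with 4 and 2 genes at an unadjusted p under 0.05). It was also lost when both were averaged to 1 sample. Without normal array 1 the called genes were Cd68, Ctss, Cd14 and Fcgr3, and without normal array 2 they were C1qa, C1qb, Csf1r and Ctss. Leaving out both arrays with Xist and Kdm5d together gave 7 called genes, which left out Mrc1, Fcgr3 and Lyz2.

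The third comparison, invasive carcinoma against carcinoma in situ, held the genotype constant. C1qc, Mrc1, Ctss and Fcgr3 rose, 4 of 10 genes, where 4.18% of all genes were called higher and 1.31% lower. Mrc1 had the largest difference, 3.16 ± 0.48 (8.94-fold, adjusted p = 0.0210 by limma). C1qc was 2.39 ± 0.39 higher (5.26-fold, adjusted p = 0.0265), Fcgr3 2.04 ± 0.24 (4.11-fold, adjusted p = 0.0101) and Ctss 1.82 ± 0.27 (3.53-fold, adjusted p = 0.0201).

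The other 6 did not pass. C1qb differed by 2.83 (95% interval 1.11 to 4.55, adjusted p = 0.0887), C1qa by 2.49 (1.12 to 3.87, adjusted p = 0.0687) and Csf1r by 2.16 (0.81 to 3.52, adjusted p = 0.0966). Lyz2 differed by 2.04 (0.97 to 3.11, adjusted p = 0.0592). The smallest differences were those of Cd68, 0.92 (0.18 to 1.66), and Cd14, 0.75 (-0.38 to 1.87). For all 10 genes both invasive arrays lay above both carcinoma in situ arrays, where 26.4% of all genes did so.

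These calls too rested on few arrays. They were 0 of 10 by limma without invasive array 2 or without either carcinoma in situ array (7, 8 and 8 at an unadjusted p under 0.05), and 3 without invasive array 1, where Ctss was lost. They were 9 without either normal array, which takes part in this comparison only through the shared estimate of the spread, and Cd14 was the gene not called. Leaving out both arrays with Xist and Kdm5d together also gave 9.

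**Figure D2:**
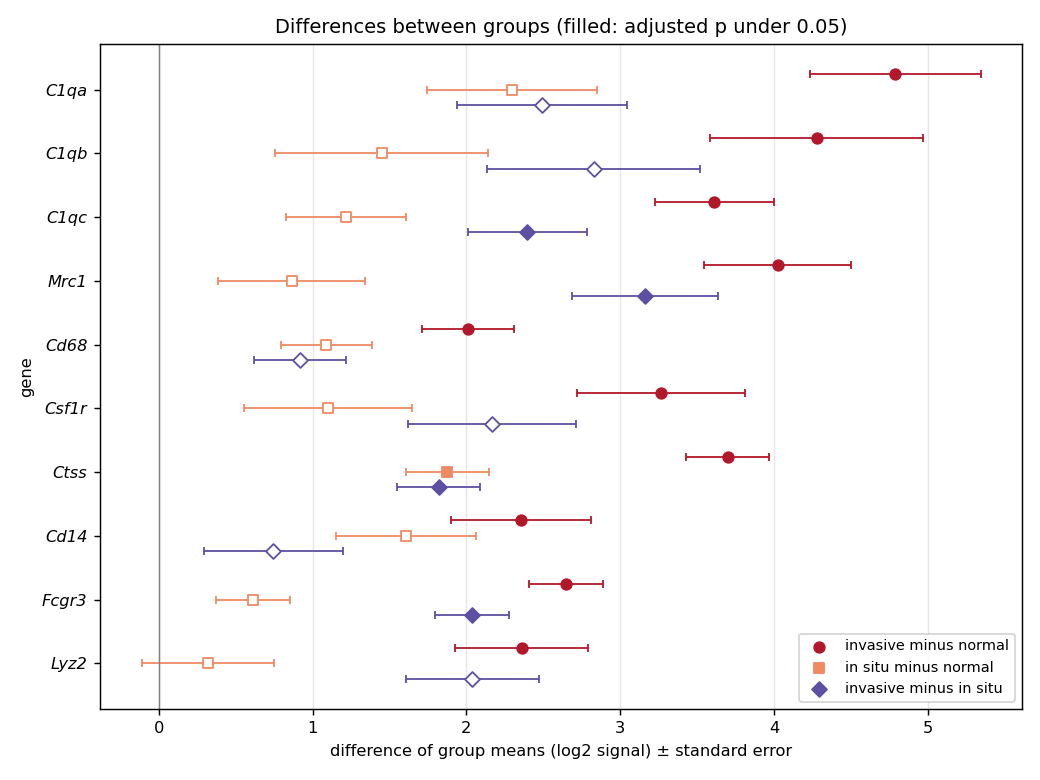
Difference of group means (log2 signal, horizontal axis) with its standard error for each gene in the 3 comparisons; filled symbols passed at an adjusted p under 0.05. Every difference is above 0, all 10 filled for invasive minus normal, 1 filled for in situ minus normal (Ctss) and 4 filled for invasive minus in situ.

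The genes did not all follow the same arrays within a group. Between the invasive arrays, array 2 was higher for 9 of 10 genes, by up to 1.37 for C1qb, and Cd14 was 0.70 lower there. Between the normal arrays the genes split. C1qa, C1qb, C1qc, Csf1r and Ctss were higher in normal array 2, by 0.51 to 1.73, and Mrc1, Cd68, Cd14, Fcgr3 and Lyz2 were lower there, by 0.49 to 1.26. The carcinoma in situ arrays differed by at most 0.59, for C1qb.

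**Figure D3:**
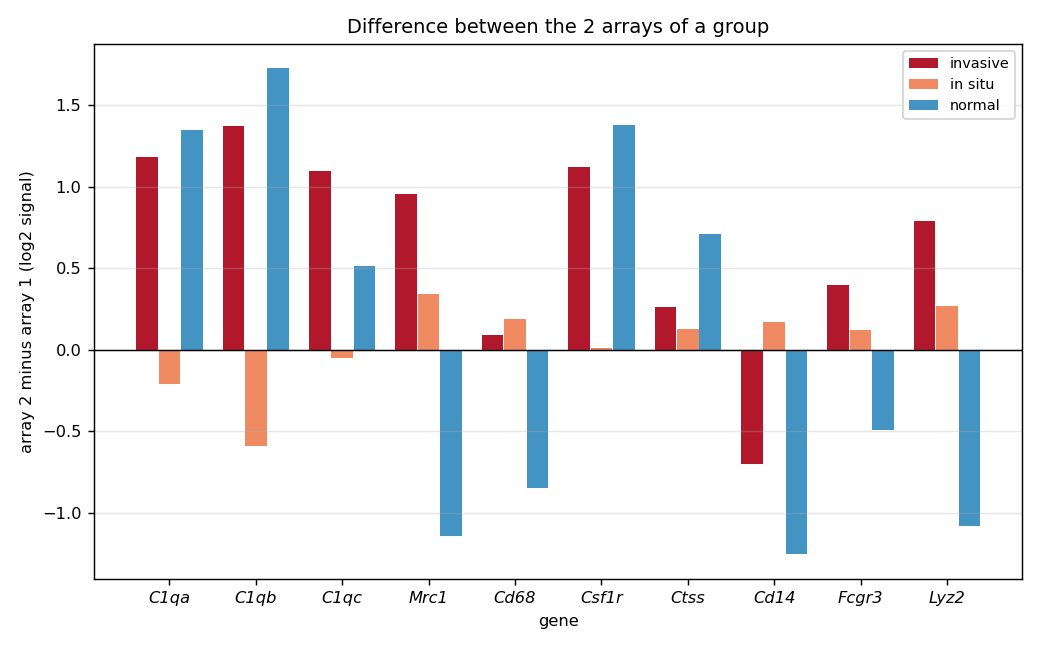
Difference between array 2 and array 1 (log2 signal, vertical axis) for each gene within invasive carcinoma, carcinoma in situ and normal urothelium. In normal urothelium the bars of the C1q genes, Csf1r and Ctss point up and those of Mrc1, Cd68, Cd14, Fcgr3 and Lyz2 point down.

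Correlations over the 6 arrays followed this split in part. They share the 3 group means and the scale of each array, and with 6 points they are a description. The C1q chains had Pearson r of 0.98 with each other, and C1qb and Csf1r reached 0.996. Mrc1 had an r of 0.996 with Fcgr3 and 0.99 with Lyz2. The lowest value was 0.66, between Csf1r and Cd14. Cd14 and Cd68 followed the split in part. Their highest r was with each other, at 0.96. With Fcgr3 they had 0.82 and 0.93, and with Csf1r 0.66 and 0.80. With Lyz2, on their own side of the split, Cd14 and Cd68 had an r of 0.77 and 0.90. Across the split, with Ctss, Cd14 had 0.84 and Cd68 0.91. With the mean of the centred C1q values the other members ran from 0.73 for Cd14 to 0.99 for Csf1r.

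Outside the group, the 5 genes whose pattern was most like the mean of the C1q chains were Arrb2, Kctd17, Sipa1, Hdac7 and Lgals9. Their Pearson r over the 6 arrays was 0.997 to 0.999, and they were picked from 8156 genes with a range of at least 1 log2 unit. Arrb2, which encodes beta-arrestin 2, read 9.09 and 9.95 in the invasive arrays, 7.68 and 7.61 in the carcinoma in situ arrays, and 5.95 and 6.91 in the normal arrays. Lgals9, the galectin 9 gene, read 6.23 and 6.56 in the invasive arrays, 5.42 and 5.34 in the carcinoma in situ arrays, and 4.39 and 4.86 in the normal arrays. Both were picked for their likeness on these same arrays, so their agreement with the C1q chains is no further evidence.

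The other probe sets of C1qb and Csf1r gave the same order of groups with other sizes. For C1qb, probe set 1434366_x_at stood for the gene and its normal arrays read 6.20 and 7.93. Probe set 1437726_x_at read 4.75 and 7.76 there, while 1417063_at read 6.05 and 5.92. The spread of C1qb between the normal arrays was thus present on the probe sets with the suffix x_at and not on the third. By 1417063_at, C1qb rose in carcinoma in situ over normal urothelium by 2.22 ± 0.41 (adjusted p = 0.0352 by limma over 34945 probe sets), a call the main probe set did not give. All 3 probe sets of C1qb were called for invasive carcinoma against normal urothelium, with differences of 4.28 to 4.99.

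For Csf1r the main probe set 1419872_at read 8.02 and 9.40 in the normal arrays, against 7.16 and 7.33 on 1419873_s_at and 6.30 and 6.38 on 1423593_a_at. The rise in invasive carcinoma over normal urothelium was 3.26 on the main probe set, 2.89 on 1419873_s_at and 1.19 on 1423593_a_at, called on each at adjusted p of 0.0142, 0.00662 and 0.0235. The larger gap between the normal arrays was found on 1 of the 3 probe sets of Csf1r. The other 8 genes had 1 probe set each.

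**Figure D4:**
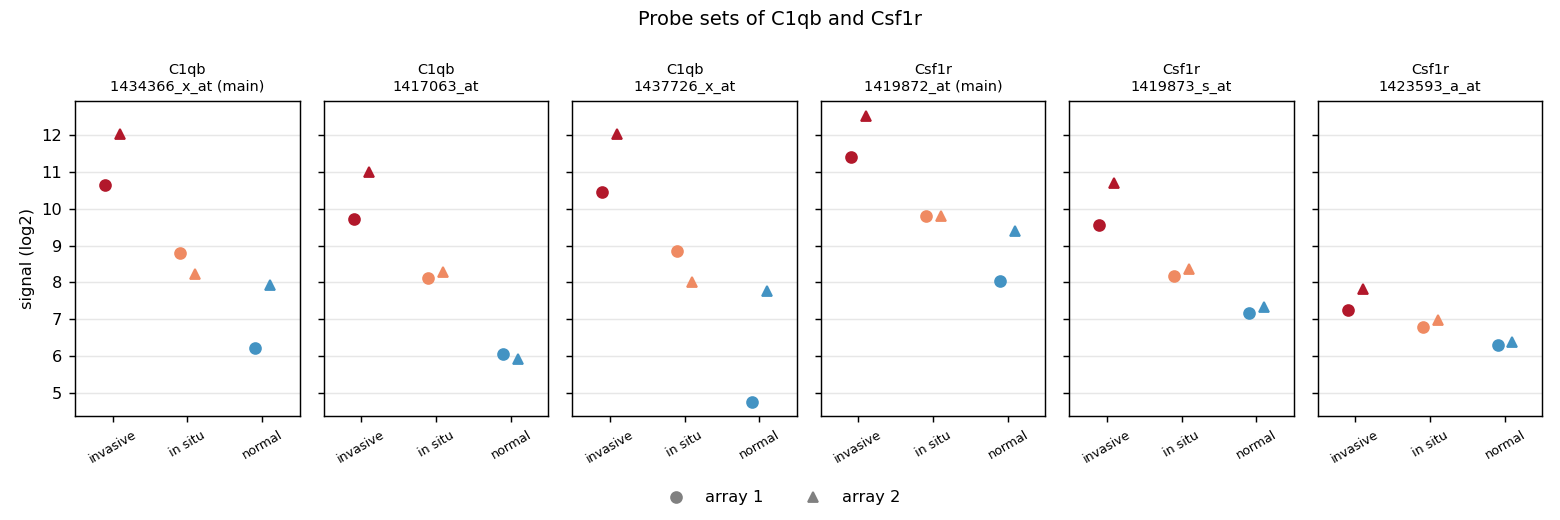
Signal (log2, vertical axis) on the 3 probe sets of C1qb and the 3 of Csf1r in invasive carcinoma, carcinoma in situ and normal urothelium; circles are array 1 and triangles array 2. The normal arrays lie far apart on 1434366_x_at, 1437726_x_at and 1419872_at and close together on the other 3.

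Further genes of the same pathways were read from lists, each described by its counts and the median difference of its measured genes. The shares to read the counts against are those given above, 12.6% of all genes called higher and 7.46% lower in invasive carcinoma over normal urothelium. The list of C1q partners and classical pathway genes also held Masp1, Masp2 and Mbl2 of the lectin pathway. Of its 6 measured genes 4 rose in invasive carcinoma over normal urothelium, with a list median of 1.84. Masp2 and Mbl2 did not pass. The largest rise was that of Masp1, a protease gene of the related lectin pathway, at 2.65 ± 0.34 (adjusted p = 0.0053 by limma). C1ra and C1s1, the proteases that C1q carries, rose by 2.0 ± 0.35 and 1.98 ± 0.34, and C2, which C1s cleaves, by 1.69 ± 0.41 (adjusted p 0.0145, 0.0131 and 0.0392 by limma). Masp1 had the order of groups of the C1q chains, but carcinoma in situ lay close to normal urothelium (difference 0.37, adjusted p = 0.576 by limma). It read 8.13 and 9.10 in the invasive arrays, 6.30 and 6.38 in the carcinoma in situ arrays, and 5.82 and 6.11 in the normal arrays. The layout of C1ra, C1s1 and C2 differed, with both carcinoma in situ arrays below both normal arrays. C1s1 read 8.49 and 9.42 in the invasive arrays, 5.36 and 5.51 in the carcinoma in situ arrays, and 7.18 and 6.77 in the normal arrays, so that carcinoma in situ was the lowest group. Against carcinoma in situ C1s1 was 3.52 ± 0.34 higher in invasive carcinoma (adjusted p = 0.0055 by limma), and 0 of 6 of this list passed in carcinoma in situ over normal urothelium, with 2 lower at an unadjusted p under 0.05. The gene of the inhibitor of C1r and C1s, Serping1, also read lowest in carcinoma in situ (7.57 and 7.43), with 10.08 and 11.46 in the invasive and 10.74 and 9.33 in the normal arrays. It rose in invasive carcinoma over carcinoma in situ by 3.27 ± 0.60 (adjusted p = 0.0403 by limma).

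Among 11 complement regulators 1 rose and 3 fell in invasive carcinoma over normal urothelium, with a median of -0.08. The rise was Cfb, factor B of the alternative pathway, at 1.33 ± 0.31. The falls were Cr1l, Cd46 and Cd59a, inhibitors on the cell surface, at -1.75 ± 0.39, -1.32 ± 0.26 and -1.14 ± 0.27 (adjusted p from 0.0204 to 0.0371 by limma over these 4). Of 9 complement receptors and binding proteins 5 rose, C3ar1, C5ar1, Itgam, Itgax and Cd93, with a median of 0.95. The other 4 did not pass, among them Vsig4 at -1.40 (adjusted p = 0.0983 by limma). In carcinoma in situ over normal urothelium Vsig4 stood at -1.33 and did not pass either (adjusted p = 0.157 by limma). C3ar1 and C5ar1, the receptors of the complement fragments C3a and C5a, rose by 2.27 ± 0.31 and 2.18 ± 0.29 (adjusted p 0.00659 and 0.00622 by limma). Cd93, a gene also expressed by endothelium, was the 1 of these 9 that passed in carcinoma in situ over normal urothelium, at 1.92 ± 0.24.

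In the CSF1 axis and among monocyte chemoattractants 11 of 15 genes rose in invasive carcinoma over normal urothelium, with a median of 1.66. Csf1, the ligand of Csf1r, read 8.85 and 9.33 in the invasive arrays, 6.83 and 6.94 in the carcinoma in situ arrays, and 6.36 and 6.82 in the normal arrays. It rose by 2.50 ± 0.25 over normal urothelium (adjusted p = 0.00246 by limma) and by 2.20 ± 0.25 over carcinoma in situ (adjusted p = 0.00867). Its difference in carcinoma in situ over normal urothelium was 0.29 (adjusted p = 0.552). The chemokine gene Ccl12 rose by 5.10 ± 0.29 in invasive carcinoma over normal urothelium, and Ccl2 and Ccl7 by 1.78 ± 0.19 and 1.96 ± 0.22 over carcinoma in situ. The genes of this list that passed in carcinoma in situ over normal urothelium were 3 of 15, Csf2rb, Cx3cl1 and Cebpb, by 2.13, 1.81 and 1.37. Spi1, the gene of PU.1, read 7.13 and 7.49 in the invasive arrays, 6.82 and 6.69 in the carcinoma in situ arrays, and 6.75 and 6.98 in the normal arrays, and passed in none of the 3 comparisons.

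Of 6 Fc receptor and adaptor genes 3 rose in invasive carcinoma, both over normal urothelium and over carcinoma in situ, while 0 passed in carcinoma in situ over normal urothelium by limma (1 at an unadjusted p under 0.05). The median over normal urothelium was 2.01 in invasive carcinoma. They were Tyrobp and Fcer1g, signalling adaptors of Fc and related receptors, and Fcgr4, at 2.65 ± 0.28, 2.63 ± 0.31 and 2.48 ± 0.44 over normal urothelium. Of the partners of CD14 2 of 7 rose in invasive carcinoma over normal urothelium, Lbp, which loads lipopolysaccharide onto CD14, by 2.74 ± 0.22, and Tlr2 by 0.89 ± 0.22, and the list median was 0.81. Tlr4 and Ly96, the receptor pair that CD14 serves, differed by 0.88 and -0.72 (adjusted p 0.194 and 0.288 by limma). Of 12 lysosomal genes, with a median of 0.61, 5 rose, led by the cathepsin gene Ctsz at 2.68 ± 0.19 and the asparaginyl endopeptidase gene Lgmn at 2.34 ± 0.58. Ctsz was also the gene of this list that rose in carcinoma in situ over normal urothelium, by 1.13 ± 0.19 (adjusted p = 0.0237 by limma).

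Of 13 scavenger and tissue residence genes 5 rose and 1, Timd4, fell in invasive carcinoma over normal urothelium, with a median of 0.47. Apoe, an apolipoprotein gene of macrophages, rose by 4.59 ± 0.38, the transcription factor gene Maf by 3.92 ± 0.40, and the scavenger receptor genes Stab1 and Msr1 by 3.71 ± 0.34 and 3.21 ± 0.35. In carcinoma in situ over normal urothelium 2 rose, Stab1 by 2.40 ± 0.34 and Apoe by 2.35 ± 0.38, and 2 fell, Mertk by 1.98 ± 0.30 and Timd4 by 0.82 ± 0.16. Genes used for alternative activation counted 6 of 10 rises in invasive carcinoma over normal urothelium and those for inflammatory activation 6 of 10 as well, with medians of 1.10 and 2.0. Arg1, the arginase gene, rose by 4.67 ± 0.45 and Chil3, a chitinase-like gene, by 4.44 ± 0.76. Ptgs2, cyclooxygenase 2, rose by 6.22 ± 0.49 and Cxcl10 by 3.14 ± 0.22. In carcinoma in situ over normal urothelium 4 of the 10 alternative activation genes rose and 1 fell. The rises were Arg1 (3.77 ± 0.45), Mgl2 (1.58 ± 0.26), Ccl17 (1.26 ± 0.20) and Ccl22 (1.23 ± 0.17), and Retnla fell by 2.55 ± 0.53. Of the 10 inflammatory activation genes 2 rose there, Ptgs2 (3.60 ± 0.49) and Il1b (2.20 ± 0.23). For invasive carcinoma against normal urothelium Retnla stood at -1.17 and did not pass (adjusted p = 0.19 by limma). Which cells the transcripts of these activation genes came from was not tested. Of 6 MHC class II genes H2-Ab1 and H2-DMa rose in invasive carcinoma over normal urothelium, by 3.12 ± 0.52 and 2.11 ± 0.41, with a list median of 2.07. H2-Eb1 rose in carcinoma in situ, by 2.60 ± 0.32, and was 2.19 ± 0.32 lower in invasive carcinoma than in carcinoma in situ (adjusted p = 0.0196 by limma).

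The label of the group was checked against 9 further macrophage markers, of which 5 rose in invasive carcinoma over normal urothelium, with a median of 1.09. Aif1 rose by 4.0 ± 0.43, Msr1 by 3.21 ± 0.35, Tyrobp by 2.65 ± 0.28, Cx3cr1 by 1.57 ± 0.35 and Itgam by 0.95 ± 0.19. Adgre1, which encodes a defining surface marker of mouse macrophages, read 6.47 and 7.36 in the invasive arrays, 5.63 and 5.71 in the carcinoma in situ arrays, and 5.96 and 5.69 in the normal arrays, and did not pass (difference 1.09 over normal urothelium, adjusted p = 0.0652 by limma). Cd163, a scavenger receptor marker, stayed between 3.50 and 4.45 on all 6 arrays, and Fcgr1, the high-affinity IgG receptor, between 6.19 and 6.99. In carcinoma in situ over normal urothelium Aif1 rose by 2.16 ± 0.43 and Mertk fell, and 7 of 9 did not pass. The table holds no detection calls, so a low signal cannot be called absent. Several of these markers also belong to the lists above.

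Markers of other cells also differed between the groups, and of the next 4 lists the mast cell markers had the order of groups that the C1q chains had. The mean log2 signal of 6 mast cell markers was 7.31 to 7.84 in the invasive, 5.49 to 5.53 in the carcinoma in situ and 5.01 to 5.26 in the normal arrays. All 6 rose in invasive carcinoma over normal urothelium, among them Cpa3, a mast cell protease, by 3.77 ± 0.20, and the median was 2.78. The mean signal of 6 fibroblast markers was 11.00 to 11.97 in the invasive arrays. It was 6.97 to 6.99 in the carcinoma in situ and 7.90 to 8.68 in the normal arrays. Of these markers 4 rose in invasive carcinoma over normal urothelium, with a median of 3.30. In carcinoma in situ over normal urothelium all 6 differences were below 0, with a median of -0.53. There 1 was called, Dcn at -4.985 ± 0.32 (adjusted p = 0.00395 by limma). Dcn read 6.32 and 6.50 in the carcinoma in situ arrays and 11.79 and 11.00 in the normal arrays. For 6 endothelial markers the mean signal was 7.02 to 7.06, 7.06 to 7.14 and 4.76 to 5.18 in the same groups. All 6 endothelial markers rose in invasive carcinoma and 4 in carcinoma in situ, each over normal urothelium, with medians of 1.83 and 2.23. The 11 urothelial markers averaged 11.39 to 11.54 in the invasive, 12.48 to 12.56 in the carcinoma in situ and 12.67 to 13.27 in the normal arrays, and 4 of them, all uroplakin genes, fell in invasive carcinoma over normal urothelium, with a list median of -0.20. The part of these cells in the values of the macrophage and C1q genes was not tested.

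Markers of other blood cells were called on 1 to 3 genes a list in invasive carcinoma over normal urothelium. For the T and NK, B and plasma and dendritic cell lists, with 1 gene each, that is near the share of all genes called higher, and their medians were -0.04, -0.46 and 0.04. Of 8 neutrophil markers 2 rose in invasive carcinoma over normal urothelium, Ltf by 5.77 ± 0.26 and Csf3r by 1.21 ± 0.19, the median was 0.77, and the list averaged 7.83 to 7.85 in the invasive, 6.73 to 6.78 in the carcinoma in situ and 5.34 to 6.48 in the normal arrays. Of 8 T and NK cell markers 1 rose, Cd3g by 1.28 ± 0.24, and the list averaged 5.64 to 6.0 in the invasive, 5.50 to 5.52 in the carcinoma in situ and 5.46 to 5.90 in the normal arrays. Of 5 B and plasma cell markers 1 rose, Jchain by 3.69 ± 0.77, with list means of 6.03 to 6.41, 4.99 to 5.07 and 5.29 to 7.0 in the same groups. Of 7 dendritic cell markers 1 rose, Itgax by 1.73 ± 0.16, with list means of 5.60 to 5.73, 5.41 to 5.55 and 5.14 to 5.37. Among 10 genes of leukocytes in general 3 rose in invasive carcinoma over normal urothelium, Cd53, Cd52 and Rac2, the median was 1.41, and the list averaged 8.14 to 8.71, 7.60 to 7.75 and 6.92 to 7.46. Ptprc, the gene of CD45, read 8.98 and 9.48 in the invasive arrays, 7.23 and 7.34 in the carcinoma in situ arrays, and 6.39 and 8.34 in the normal arrays, and did not pass in any comparison. Whether these cells have a part in the values above was not tested.

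The lists were also counted without invasive array 1 and normal array 2, with the spread taken from the carcinoma in situ arrays alone. Of 172 different genes on the lists, those called with all arrays numbered 82 in invasive carcinoma over normal urothelium, 28 in carcinoma in situ over normal urothelium and 42 in invasive carcinoma over carcinoma in situ. All 82, 28 and 42 were called in the same direction without these arrays. In total 124, 91 and 112 were called then, where 24.4%, 19.4% and 15.2% of all genes were called higher and 20.4%, 15.5% and 17.3% lower. In invasive carcinoma over normal urothelium the medians of 3 lists changed sign, to 0.11 for the complement regulators, 0.44 for the T and NK cell markers and 0.03 for the B and plasma cell markers. Medians also changed sign in carcinoma in situ over normal urothelium. They came to 0.02 for the complement receptors, 0.21 for the scavenger and tissue residence genes and 0.38 for the genes of leukocytes in general. For the lysosomal genes the median came to -0.26 and for the urothelial markers to -0.18. In invasive carcinoma over carcinoma in situ that of the partners of CD14 turned, to -0.07.

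**Figure D5:**
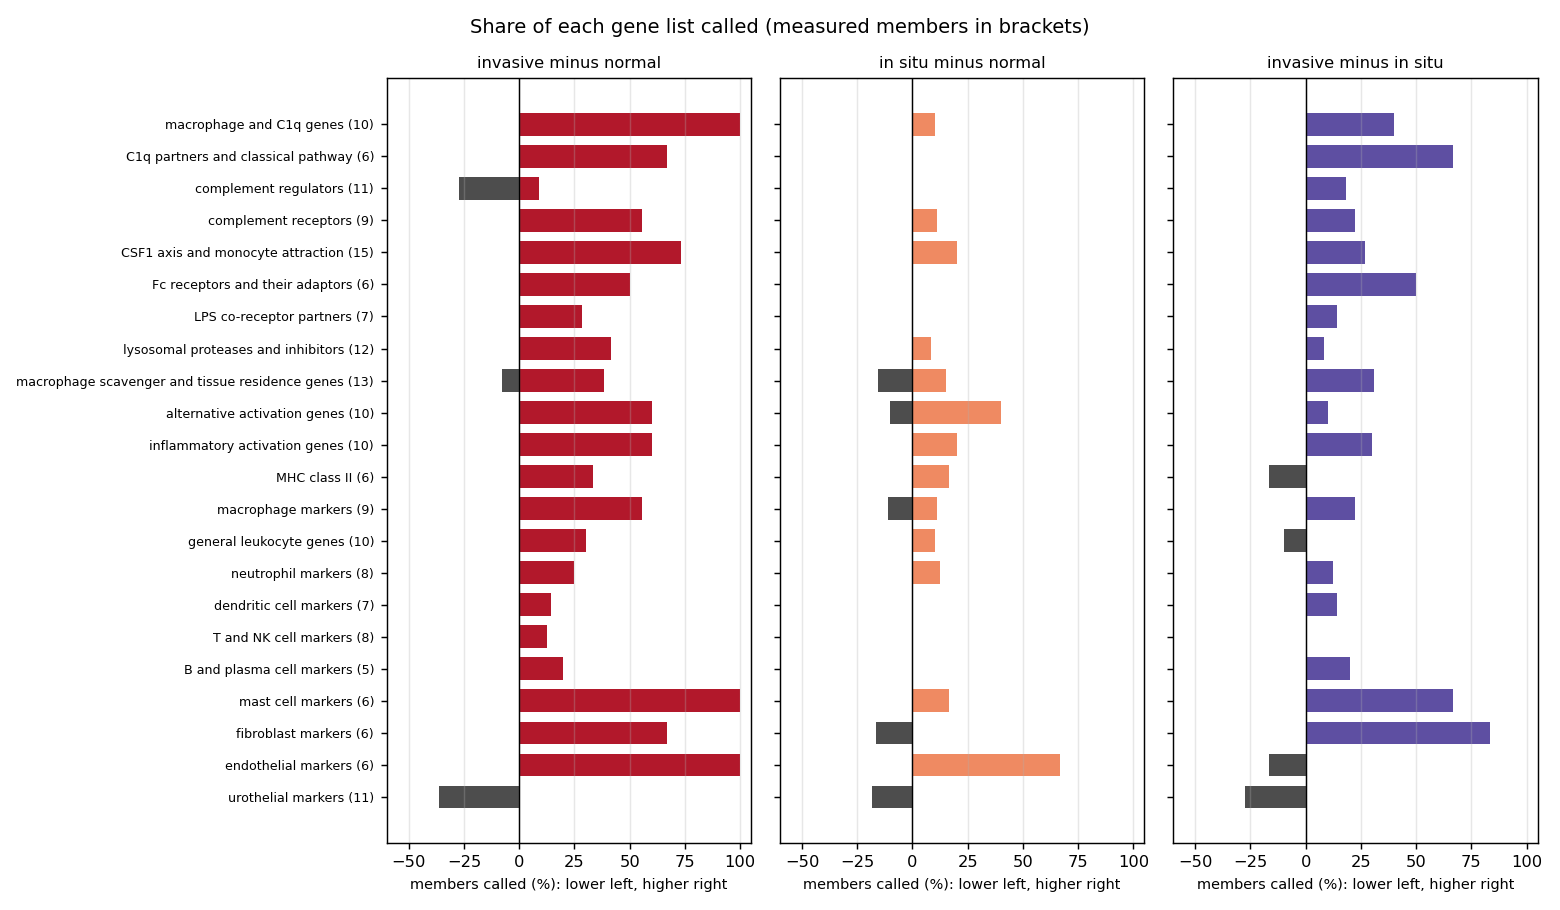
Share of the measured genes of each list (percent, horizontal axis) called higher, to the right, or lower, to the left, in the 3 comparisons; the number of measured genes stands in brackets. For invasive minus normal the macrophage and C1q genes, the mast cell markers and the endothelial markers reach all of their genes, and for in situ minus normal the endothelial markers have the longest bar.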

How the data were processed

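Per the labels' protocols, cells were laser-captured from frozen, stained sections, total RNA was extracted, and labelled with an Affymetrix 3' expression kit. Per the submitters' processing notes the tools were Partek and RMA, with no version given. The deposited table holds log2 signals of 45101 probe sets on 6 arrays, made by the authors, and was used as deposited. RMA forces arrays to a common distribution, which removes differences in total RNA, and it compresses dim signals, so their folds are understated. A deposited table of fold changes was not used. Groups came from the titles.

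Probe sets were named through the array annotation: 34958 had 1 symbol, 932 several and 9211 none. Without controls, 34945 were kept and symbols updated by Entrez identifier for 34741 from RefSeq (GRCm38.p6), giving 18193 genes, each on the probe set of highest mean. All 6 arrays entered 1 limma 3.58.1 model (R 4.3.3) of 3 group means with eBayes (3 residual and 2.69 prior degrees of freedom). P-values are two-sided, adjusted by Benjamini-Hochberg over all genes and called under 0.05. The code was tested on simulated data.

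The member genes and the 21 context lists (181 of 200 entries measured) were chosen with earlier results of these data known. Named genes are the members with all probe sets, up to 4 called genes of largest change per list and comparison (or up to 2 given as values), and the 5 genes most like C1q. Some genes, such as Adgre1, Cd163, Fcgr1, Spi1, Tlr4, Ly96, Csf1, Ptprc, Vsig4, Ccl22, Lyz1, Xist, Kdm5d, Ms4a1 and S100a8, were named outside that rule after their values were seen. Alternatives left out each array, added the replicate number as a block, changed the normalization, the filter on dim genes (mean of at least 5), the probe set, the prior variance or the arrays fitted, or averaged the carcinoma in situ arrays.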

Additional observations from a re-analysis of the deposited data

How the results depend on the processing

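The direction of the 10 genes was the same under all 15 alternatives in invasive carcinoma against normal urothelium and in invasive carcinoma against carcinoma in situ. In carcinoma in situ against normal urothelium Lyz2 turned, at -0.2184 both without normal array 2 and without both arrays with Xist and Kdm5d, while it was 0.8599 without normal array 1. Calls held less firmly: of 150 values per comparison 14, 3 and 17 lost their call and 0, 13 and 24 gained one (invasive against normal, in situ against normal, invasive against in situ). Leaving out 1 array gave 5 to 10, 0 to 4 and 0 to 9 called genes of the 10, with 10, 2 to 7 and 7 to 10 at an unadjusted p under 0.05, and 1637 to 5699, 0 to 4196 and 50 to 2493 called genes of all 18193. The 0 over all genes arose without either carcinoma in situ array, where 2347 and 2443 genes had an unadjusted p under 0.05 by limma. A lone array was assumed to vary like the other groups. With the carcinoma in situ arrays averaged, 1832, 0 and 55 genes were called (2320 at an unadjusted p under 0.05 in the second comparison), with 8, 0 and 0 of the 10. With only the 4 arrays of the compared groups, 1832, 947 and 2493 were called, with 8, 1 and 9 of the 10. Without both arrays with Xist and Kdm5d, 8165, 6352 and 5897 were called, with 10, 7 and 9 of the 10. The causes were not tested.

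With the replicate number as a block, 10, 2 and 6 of the 10 genes were called, C1qa being added in carcinoma in situ against normal urothelium and C1qa and Csf1r between the lesions. All genes called numbered 3315, 1146 and 887, against 3652, 1597 and 999. The deviations of same-numbered arrays correlated at -0.34, 0.37 and -0.39 between groups. The signs differed, so these values do not settle whether the numbers pair the arrays. A further quantile normalization, median centring, the filter on dim genes, the mean over probe sets and an intensity trend left the called genes of the 10 at 10, 1 and 4 or 5. Array signal over background was not in the table, so what is too dim to measure cannot be stated.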

Other observations

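A few immune genes had carcinoma in situ as their extreme group rather than as the middle one. Cd53, a tetraspanin gene of leukocytes, read 8.76 and 8.83 in the invasive arrays, 11.18 and 11.46 in the carcinoma in situ arrays, and 7.38 and 6.19 in the normal arrays. It was higher in carcinoma in situ than in normal urothelium by 4.54 and lower in invasive carcinoma than in carcinoma in situ, at -2.52, both called by limma. H2-Eb1, an MHC class II gene, read 6.29 and 6.96 in the invasive arrays, 8.75 and 8.88 in the carcinoma in situ arrays, and 5.88 and 6.56 in the normal arrays, so that carcinoma in situ was highest there too. Mertk, the gene of a receptor for dying cells, was lowest in carcinoma in situ, with 8.10 and 8.79 in the invasive arrays, 7.25 and 7.26 in the carcinoma in situ arrays, and 9.51 and 8.95 in the normal arrays. These genes were picked out after their values were seen, and each is read from 1 probe set.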
